A study of Mus musculus with 34 samples.

Results

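The surfactant genes described here are 8 genes chosen by symbol: Sftpa1, Sftpd, Sftpb, Sftpc, Napsa, Abca3, Lamp3 and Slc34a2. All 8 were found among the 24223 rows of the knockout count table, and all 8 were among the 14847 genes with enough reads to test. Pulmonary surfactant is a film of lipids and proteins that lowers surface tension in the air spaces of the lung. The hydrophobic proteins SP-B and SP-C spread and stabilise the film, whereas the water-soluble collectins SP-A and SP-D bind microbes and lipids. Alveolar type II cells make, process and store the whole mixture in lysosome-related lamellar bodies, and some of its genes are also transcribed in the secretory cells of the conducting airway.

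RNA was sequenced from tracheal brushings, which sample the lining of the windpipe. All knockout mice carried the genotype Gprc5a-/-, so the baseline group lacked this lung tumour suppressor as well. Mice were brushed before exposure (baseline, n = 6), or after the tobacco carcinogen NNK had been given by intraperitoneal injection over 8 weeks, with 3 doses of 50 mg/kg each week. The exposed groups were brushed directly after the last week (t0, n = 6), or 2 months (t2, n = 5), 4 months (t4, n = 6) and 6 months (t6, n = 5) later. Another 6 wild-type mice were brushed before exposure. The labels give an age of 6 to 8 weeks for every mouse, also for those brushed months after exposure. Since no unexposed mice of comparable later ages were used here, ageing and the time since NNK cannot be told apart.

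The 28 knockout libraries, each from a separate mouse, held 15.6 to 37.6 M estimated reads, and the 6 wild-type libraries 10.8 to 24 M. Gprc5a had 4 to 49 reads in 27 knockout libraries and 2115 to 8186 in the wild-type libraries. The exception was t2 library 339, with 238 Gprc5a reads and the fewest genes above 0 (14475). A further 5 libraries stood apart by other measures. Haemoglobin genes took 22.8% of t0 library 357, 25.5% of t4 library 371 and 15.3% of t6 library 349, the 45S rRNA gene took 14.8% of t6 library 365, and t2 library 334 held Xist reads beside Y-linked reads. Results are given with and without these 6 libraries where that changed a call.

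Levels of different genes can be compared only per unit of transcript length, which the wild-type files allow as TPM, each transcript's length-corrected share of a library. In the 6 unexposed wild-type brushings the collectins stood highest, with Sftpa1 at 484 ± 182 TPM (SD, n = 6) and Sftpd at 331 ± 113. Sftpa1 was above Sftpd in 6 of 6 libraries, although their ranges overlapped. Next came Abca3 at 40.1 ± 15.8 TPM, Sftpb at 24.5 ± 13.0 and Sftpc at 13.6 ± 5.5. Napsa followed at 5.80 ± 5.47 TPM and Slc34a2 at 2.24 ± 0.98, and Lamp3 was listed at 0 in 5 libraries with 1.01 estimated reads in the other. Of the neighbours in this order, the ranges of Sftpd and Abca3, and of Slc34a2 and Lamp3, did not overlap. The other neighbours overlapped.

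**Figure D1:**
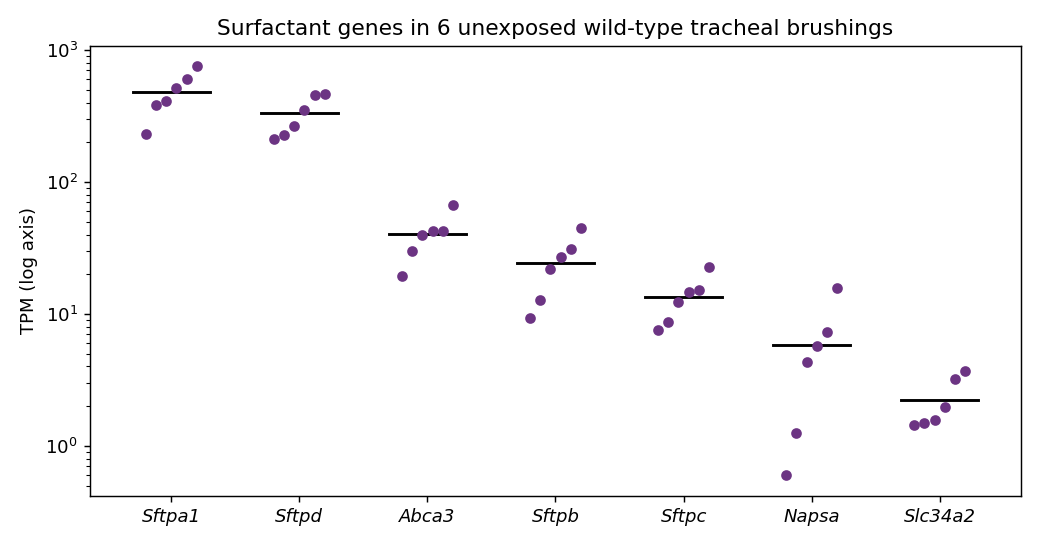
TPM (log axis) of 7 surfactant genes in the 6 unexposed wild-type brushings; each point is a library and the line is the mean. Sftpa1 (233 to 752 TPM) and Sftpd (213 to 468 TPM) lie above all values of the other 5 genes. Lamp3 was at 0 in 5 libraries and is left off the log axis.

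The brushings were checked for alveolar cells, since these genes are best known from there. Sftpc, the defining type II gene, had a mean of 13.6 TPM (highest 22.8) against a mean of 94310 TPM for Scgb1a1, the club cell secretoglobin. Ager, the defining type I gene, was at 7.05 ± 5.59 TPM. In the knockout baseline libraries Ager was at 5.51 ± 5.72 CPM (each gene's share of a library's counts, scaled by TMM), and Cxcl15, a chemokine of lung epithelium, at 14.2 ± 5.1 CPM. Nkx2-1, the lung lineage factor that binds surfactant gene promoters, stood at 97.8 ± 17.0 CPM. These CPM values are not corrected for length and do not rank genes against each other. In the wild-type libraries Cxcl15 ranged from 2.77 to 61.6 TPM and Nkx2-1 from 30.4 to 58.2 TPM. In brushings, fewer cells of a type and less RNA per cell cannot be told apart.

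Promoter windows of 250 bases before and 50 after the start site were found for 5 of the 8 genes in the RefSeq table (GRCm38.p6): Sftpa1, Sftpb, Abca3, Lamp3 and Slc34a2. Windows of Sftpa1 and Sftpb are shown because these genes had the largest falls at t0, and that of Abca3 because its fall was smaller. The letters CTCAAG, a core known to be bound by NKX2-1, were searched on both strands and are in capitals in the first 2, as is, in Sftpb, GCAAACA, the reverse complement of the forkhead (FOXA) letters TGTTTGC. The Sftpa1 window is chr14:41131538-41131837, plus strand, that of Sftpb is chr6:72304360-72304659, plus strand, and that of Abca3 is chr17:24351773-24352072, plus strand.
Sftpa1: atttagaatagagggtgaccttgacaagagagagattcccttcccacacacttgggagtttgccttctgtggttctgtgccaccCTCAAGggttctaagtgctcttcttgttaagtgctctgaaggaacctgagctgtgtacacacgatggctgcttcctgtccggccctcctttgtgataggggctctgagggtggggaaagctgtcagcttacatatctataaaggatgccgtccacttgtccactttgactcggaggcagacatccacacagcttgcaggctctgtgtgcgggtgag
Sftpb: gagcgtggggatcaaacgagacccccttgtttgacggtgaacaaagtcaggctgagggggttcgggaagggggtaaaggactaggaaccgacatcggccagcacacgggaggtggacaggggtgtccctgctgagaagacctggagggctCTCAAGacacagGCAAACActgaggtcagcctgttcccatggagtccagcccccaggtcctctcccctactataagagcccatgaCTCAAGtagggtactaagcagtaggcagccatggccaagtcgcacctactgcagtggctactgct
Abca3: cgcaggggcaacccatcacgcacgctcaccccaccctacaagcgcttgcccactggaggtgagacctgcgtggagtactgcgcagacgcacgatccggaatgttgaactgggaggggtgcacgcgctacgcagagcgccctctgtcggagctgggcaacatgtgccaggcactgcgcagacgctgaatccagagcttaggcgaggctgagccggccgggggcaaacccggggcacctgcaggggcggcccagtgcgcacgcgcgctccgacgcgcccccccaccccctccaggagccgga

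Counted from the start site as base 0, CTCAAG began at -166 in Sftpa1 and at -100 and -15 in Sftpb, where GCAAACA began at -88. CTCAAG was present in 15.9% of all 32851 promoter windows of this length, and TGTTTGC in 5.07%. The longer CACTCAAG, which contains CTCAAG, was in 1.43% of all windows and in none of the 5. TGTTTAC, also a forkhead core, was in 3.65% of windows and in that of Lamp3 (-92). The C/EBP letters TTGCNNAA were in 10.8% of windows and in that of Slc34a2 (-48), where the match TTGCGCAA reads alike on both strands. The Abca3 window held none of these letters. These are matches of letters, and binding was not measured.

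Directly after exposure (t0), 5 of the 8 genes fell against baseline: Sftpa1, Sftpb, Sftpc, Sftpd and Abca3. Napsa rose, and Lamp3 and Slc34a2 did not pass the test. Tests are edgeR's quasi-likelihood test with Benjamini-Hochberg adjustment over all 14847 genes and a threshold of 0.05. The 6 calls among 8 genes stand beside a background of 45.5% of all genes called in this comparison, with 3457 genes higher and 3305 lower. The median log2 fold change of the 8 genes was -0.72 and that of all genes 0.02. With libraries scaled by their totals alone, the median of all genes was 0.19, and 69.3% of the calls were higher in place of 51.1%. With haemoglobin genes and the 45S rRNA gene left out before scaling, the median was -0.06 and 43.6% of the calls were higher.

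**Figure D2:**
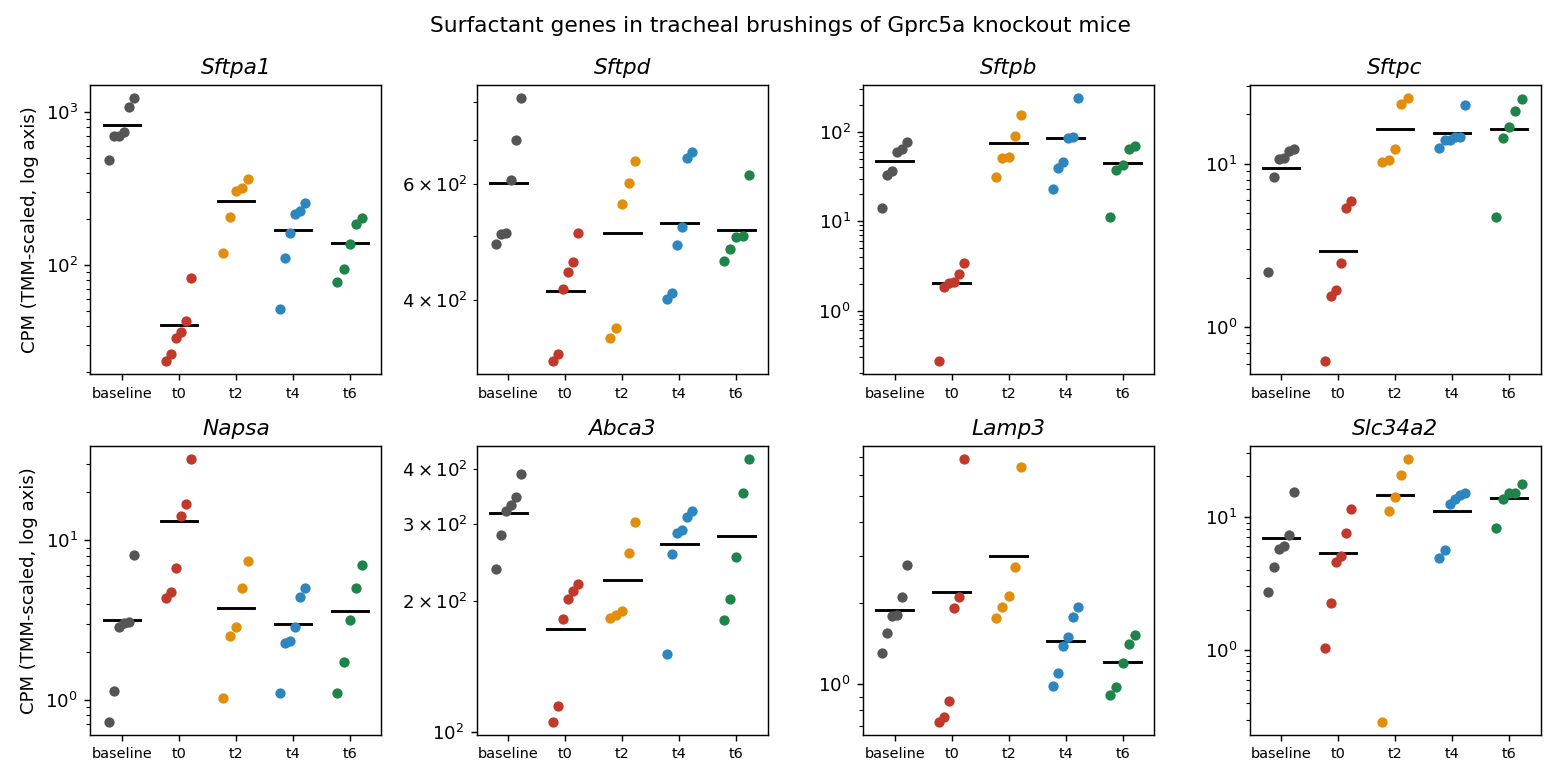
TMM-scaled CPM (log axis) of the 8 genes in the 28 knockout libraries by group; each point is a library and the line is the group mean. The t0 libraries of Sftpb (0.273 to 3.45 CPM) lie below every library of the other groups, those of Sftpa1 lie below all baseline and t2 libraries, and t2 library 339 lies at 0.291 CPM for Slc34a2.

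Sftpa1 (chromosome 14, 41131788-41136374, plus strand, mm10) encodes SP-A, the collectin that is most abundant in lavage fluid. Its baseline libraries ranged from 486 to 1240 CPM with a median of 724, and its t0 libraries from 23.5 to 81.7 CPM with a median of 34.7. The groups did not overlap. The log2 fold change was -4.35 ± 0.40 (SE), a 20.4-fold lower level (adjusted p = 5.2e-09).

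Sftpd (chromosome 14, 41172212-41185199, minus strand) encodes the related collectin SP-D and lies 35.8 kb from Sftpa1. Its baseline libraries ranged from 486 to 810 CPM with a median of 557, and its t0 libraries from 324 to 506 CPM with a median of 429. The ranges overlapped, and all 6 t0 libraries were below the baseline mean. Sftpd fell by 0.55 ± 0.17 on the log2 scale (adjusted p = 0.011), and missed the threshold with scaling by library totals (-0.36, adjusted p = 0.17).

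Both collectin genes are counted in the same libraries, so their ratio does not depend on how libraries are scaled. The ratio of Sftpa1 to Sftpd reads had a median of 1.46 at baseline (0.798 to 1.56) and of 0.0842 at t0 (0.0652 to 0.179). No t0 library reached the baseline range. The ratio's median was 0.570 at t2 (0.198 to 1.05), 0.395 at t4 (0.0770 to 0.526) and 0.299 at t6 (0.153 to 0.405). All t4 and t6 libraries lay below the baseline range, while t2 overlapped it.

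**Figure D3:**
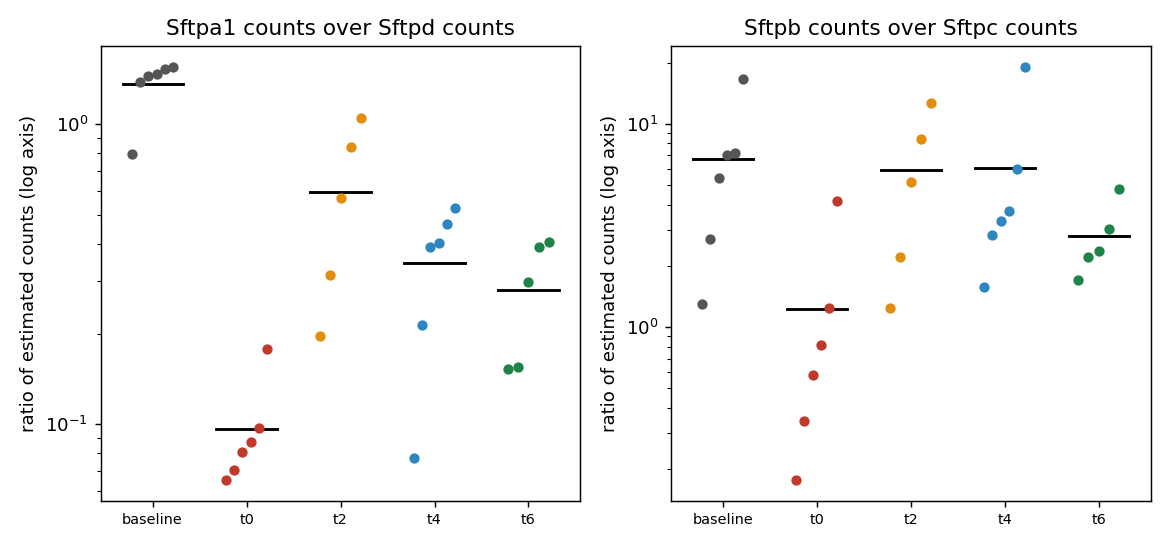
Ratio of estimated counts within each library (log axes), Sftpa1 over Sftpd on the left and Sftpb over Sftpc on the right; each point is a library and the line is the group mean. The left ratio was 0.0652 to 0.179 at t0 against 0.798 to 1.56 at baseline, and its t4 and t6 points also lie below the baseline points.

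Sftpb (chromosome 6, 72304610-72314374, plus strand) encodes SP-B, a saposin-like protein required for lamellar body formation. Its baseline libraries ranged from 13.9 to 76.3 CPM with a median of 48.2. The t0 libraries ranged from 0.273 to 3.45 CPM with a median of 2.06, from 6 to 73 reads each, and did not overlap baseline. Sftpb was 23.2-fold lower at t0, a log2 fold change of -4.54 ± 0.62 (adjusted p = 2.3e-06). The lowest t0 library, 332, lay below the other 5, which spanned 1.85 to 3.45 CPM.

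Sftpc (chromosome 14, 70520942-70524082, minus strand) encodes SP-C, a small lipopeptide cut from a larger precursor. Its baseline libraries ranged from 2.18 to 12.2 CPM with a median of 10.8, and its t0 libraries from 0.623 to 5.91 CPM with a median of 2.08. The ranges overlapped through baseline library 352, at 2.18 CPM, while the other 5 spanned 8.32 to 12.2 CPM. The log2 fold change was -1.67 ± 0.44, or 3.17-fold lower (adjusted p = 0.0030). The ratio of Sftpb to Sftpc reads had a median of 6.22 at baseline (1.3 to 16.7) and of 0.700 at t0 (0.176 to 4.17), with overlapping ranges.

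Napsa (chromosome 7, 44572445-44586847, plus strand) encodes napsin A, an aspartic protease that helps process the SP-B precursor. It was the 1 gene of the 8 that rose at t0. Baseline libraries ranged from 0.727 to 8.14 CPM with a median of 2.96, and t0 libraries from 4.33 to 32.5 CPM with a median of 10.4. The ranges overlapped, but all 6 t0 libraries were above the baseline mean. The log2 fold change was 2.06 ± 0.58, or 4.17-fold higher (adjusted p = 0.0052). All 9 macrophage markers tested also rose at t0, beside 45.5% of all genes called. Their summed level was 44.5 to 97.0 CPM at baseline and 419 to 1414 CPM at t0. The t0 libraries with the most Napsa, 375, 332 and 357 (32.5, 16.9 and 14.1 CPM), also had the highest macrophage sums (1414, 986 and 1184 CPM). Library 375 had the highest Lamp3 level as well. At t6 library 368 was highest in both (7.03 CPM of Napsa and a macrophage sum of 310.5 CPM). At t4 the library with the highest macrophage sum, 377 (431 CPM), had the lowest Napsa level of its group (1.10 CPM). The same held at t2 for library 360 (macrophage sum 233 CPM, Napsa 1.02 CPM). The part of these markers in the Napsa result was not tested. The gene overlaps an annotated antisense transcript, Gm15396, and the sources used here do not say whether counting used strand.

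Abca3 (chromosome 17, 24352023-24410205, plus strand) encodes the transporter that moves phospholipid into lamellar bodies. Its baseline libraries ranged from 237 to 390 CPM with a median of 326, and its t0 libraries from 106 to 218 CPM with a median of 192. The groups did not overlap. The log2 fold change was -0.88 ± 0.22, or 1.85-fold lower (adjusted p = 0.0016). Abca3 overlaps D330041H03Rik on the other strand, which is also in the table, and none of its 28 values was a whole number within 0.01.

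Lamp3 (chromosome 16, 19653381-19706366, minus strand) encodes a glycoprotein of the lamellar body membrane that is also a marker of mature dendritic cells. Its estimates were low in every group, from 0.726 to 6.88 CPM, and none of its 28 values was whole. In 26 of the 28 libraries the fractional parts of the Lamp3 and Ppid counts summed to a whole number within 0.01, and the next gene matched in 4. Ppid, named after these values were seen, encodes a cyclophilin and had 245 to 1225 reads a library. The Lamp3 and Ppid values are thus not separate counts of whole reads, and the Lamp3 level is uncertain. At t0 the log2 fold change was 0.23, with a 95% interval of -0.70 to 1.15 (adjusted p = 0.71). Without t0 library 375 it was -0.56 (adjusted p = 0.25).

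Slc34a2 (chromosome 5, 53049353-53071664, plus strand) encodes the phosphate cotransporter NaPi-IIb, which takes up phosphate released from surfactant lipids. Its baseline libraries ranged from 2.74 to 15.4 CPM with a median of 5.84, and its t0 libraries from 1.04 to 11.3 CPM with a median of 4.82. The ranges overlapped. The log2 fold change was -0.38, with a 95% interval of -1.55 to 0.80 (adjusted p = 0.61). Without baseline library 345 it was 0.03. The gene overlaps an annotated antisense transcript, Gm17182.

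**Figure D4:**
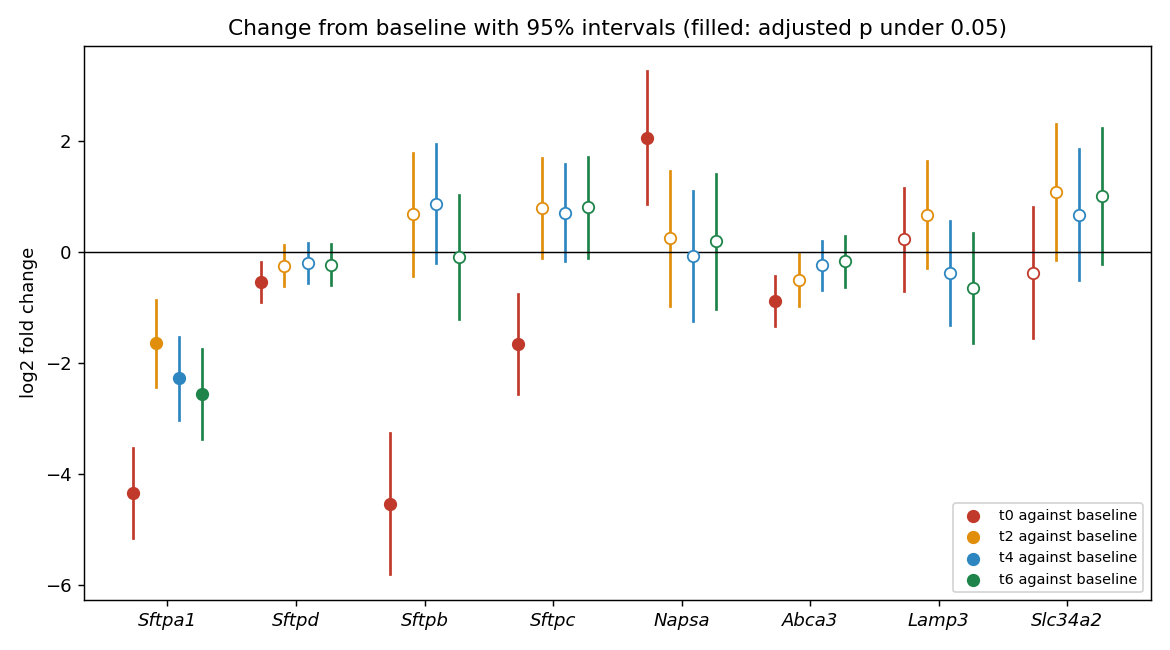
Log2 fold change of each gene against baseline at t0, t2, t4 and t6, with 95% intervals; filled points had an adjusted p under 0.05. Sftpa1 is filled and below 0 at all 4 times (-4.35, -1.65, -2.28 and -2.56), and the other filled points are all at t0.

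At 2, 4 and 6 months after exposure, Sftpa1 was the 1 gene of the 8 that passed against baseline, and it fell each time. The backgrounds were 19.9% of all genes at t2, 19.6% at t4 and 8.82% at t6, so a single call among 8 genes is a share below the background at t2 and t4 and close to it at t6. The 4 comparisons share the 6 baseline libraries. The median log2 fold change of the 8 genes was 0.46 at t2, -0.14 at t4 and -0.13 at t6.

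Sftpa1 at t2 was at 368, 119, 305, 319 and 205 CPM. At t4 it ranged from 51.7 to 256 CPM with a median of 189, and at t6 it was at 137, 203, 94.6, 187 and 77.7 CPM. Every one of these 16 libraries lay below the lowest baseline library (486 CPM). The log2 fold change was -1.65 ± 0.38 at t2 (adjusted p = 0.0036), or 3.14-fold lower. At t4 it was -2.28 ± 0.36 (adjusted p = 0.00011), or 4.86-fold lower. At t6 it was -2.56 ± 0.39 (adjusted p = 0.00011), or 5.92-fold lower. Leaving out any 1 library kept all 3 calls, with log2 fold changes of -1.80 to -1.47 for t2, -2.43 to -2.09 for t4 and -2.74 to -2.41 for t6.

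The other collectin gene, Sftpd, was at 351, 603, 363, 560 and 650 CPM at t2, 402 to 672 CPM at t4 (median 501) and 458, 501, 620, 479 and 499 CPM at t6. All 3 groups overlapped baseline. Its 95% intervals against baseline were -0.62 to 0.12 (t2), -0.55 to 0.15 (t4) and -0.61 to 0.13 (t6) on the log2 scale.

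Sftpb at t2 was at 88.8, 31.3, 51.0, 155 and 52.8 CPM. At t4 it ranged from 22.9 to 239 CPM with a median of 65.5, and at t6 it was at 63.6, 68.7, 37.1, 42.6 and 11.2 CPM. All 3 groups overlapped baseline and none overlapped t0. Against baseline the log2 fold changes were 0.68 at t2 (adjusted p = 0.40), 0.86 at t4 (0.25 adjusted) and -0.09 at t6 (0.95 adjusted). Without t4 library 336, at 239 CPM, the t4 value was 0.24. The t6 value had a 95% interval of -1.21 to 1.03.

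Sftpc at t2 was at 10.5, 25.2, 23.0, 12.3 and 10.3 CPM. At t4 it ranged from 12.5 to 22.8 CPM with a median of 14.2, and at t6 it was at 21.0, 14.4, 16.9, 24.9 and 4.71 CPM. The 6 t4 libraries lay above all 6 baseline libraries, without passing the test (log2 fold change 0.71 ± 0.42, adjusted p = 0.25). The values at t2 (0.79, adjusted p = 0.21) and t6 (0.80, adjusted p = 0.29) did not pass either.

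Napsa at t2 was at 5.02, 7.41, 2.51, 2.86 and 1.02 CPM, and at t6 at 3.15, 5.05, 1.11, 1.73 and 7.03 CPM. At t4 it ranged from 1.10 to 5.06 CPM with a median of 2.60. All 3 groups overlapped baseline, and the sign of the difference changed with single libraries left out. Abca3 at t2 was at 303, 190, 258, 182 and 186 CPM, with a log2 fold change of -0.51 ± 0.23 (adjusted p = 0.11). It ranged from 151 to 321 CPM at t4 and was at 202, 180, 352, 423 and 253 CPM at t6, and its 95% intervals against baseline were -0.68 to 0.20 (t4) and -0.64 to 0.29 (t6).

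Slc34a2 at t2 was at 27.0, 0.291, 11.1, 14.1 and 20.4 CPM. The low value belonged to library 339, the one with the highest Gprc5a count of the knockouts. With it the log2 fold change against baseline was 1.08 ± 0.60 (adjusted p = 0.20), and without it 1.40 (adjusted p = 0.035). At t4 the gene ranged from 4.88 to 15.1 CPM with a median of 12.9, and at t6 it was at 17.5, 14.9, 8.25, 13.6 and 14.9 CPM. Neither passed, with log2 fold changes of 0.67 (adjusted p = 0.43) and 1.01 (adjusted p = 0.32). Lamp3 ranged from 1.77 to 6.44 CPM at t2, again highest in library 339, and from 0.913 to 1.94 CPM at t4 and t6, and passed at none of these times.

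The differences between times were tested directly. Between t0 and t2, 4 of the 8 genes passed against a background of 29.9% of all genes. Sftpb rose 37.1-fold (log2 fold change 5.21 ± 0.65, adjusted p = 2.0e-06), Sftpa1 rose 6.48-fold (2.7 ± 0.38, adjusted p = 6.1e-06) and Sftpc rose 5.49-fold (2.46 ± 0.46, adjusted p = 0.00017). For these 3 genes no t2 library overlapped a t0 library, though the share of all genes without overlap was not computed. Napsa fell by 1.81 ± 0.62 on the log2 scale (adjusted p = 0.027), a call that was lost without t0 library 375 (-1.31, adjusted p = 0.11) or with only the groups compared in the fit (-1.79, adjusted p = 0.053). It was also lost without t2 library 347, 358 or 360, where the values were -1.70, -1.73 and -1.57.

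Between t0 and t6, 5 of the 8 genes passed against a background of 38.7%. Sftpb rose 21.8-fold (log2 fold change 4.45 ± 0.63, adjusted p = 5.1e-06), and all t6 libraries lay above all t0 libraries. Sftpc rose 5.52-fold (2.47 ± 0.46, adjusted p = 0.00012) and Sftpa1 rose 3.44-fold (1.78 ± 0.37, adjusted p = 0.00039), each with overlapping ranges. Abca3 rose 1.64-fold (0.71 ± 0.23, adjusted p = 0.014) with overlapping ranges, and missed the threshold without t6 library 366 (0.52, adjusted p = 0.076) or with scaling by library totals (0.56, adjusted p = 0.064). Napsa fell by 1.87 ± 0.62 (adjusted p = 0.018), and missed the threshold without t0 library 375 (-1.37, adjusted p = 0.075) or without the 6 libraries that stood apart (-1.66, adjusted p = 0.096). Slc34a2 just missed the threshold at both times, with 1.46 ± 0.60 at t2 (adjusted p = 0.067) and 1.38 ± 0.60 at t6 (adjusted p = 0.069), and passed at both without t0 library 375 (1.83 and 1.75), without t2 library 339 (1.78 and 1.38), without the 6 libraries (1.67 and 1.71) and with DESeq2 (1.46 and 1.41). The t6 difference also passed with limma on log2(CPM + 1) (1.43) and with only the groups compared (1.45).

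Over the 5 groups together, the F test called 5 of the 8 genes against a background of 56.8%. These were Sftpa1 (adjusted p = 1.6e-08), Sftpb (adjusted p = 4.7e-06), Sftpc (adjusted p = 0.00042), Napsa (adjusted p = 0.0040) and Abca3 (adjusted p = 0.012). Sftpd, Lamp3 and Slc34a2 missed it with adjusted p-values of 0.097, 0.13 and 0.13. Slc34a2 passed without the 6 libraries that stood apart (adjusted p = 0.044), and Sftpd passed with haemoglobin genes and the 45S rRNA gene left out (adjusted p = 0.043). Abca3 missed the threshold with scaling by library totals (adjusted p = 0.090).

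Transcription factors known to act on surfactant genes were then set beside them. Of 13 such genes tested, 2 fell at t0 and none rose, beside 45.5% of all genes called: Foxa2, a forkhead factor of airway and alveolar epithelium, and Gata6, a zinc finger factor of lung endoderm. Foxa2 was at 31.4 to 45.1 CPM at baseline and 4.26 to 13.2 CPM at t0, with no overlap (log2 fold change -2.03 ± 0.28, adjusted p = 2.4e-06). Gata6 was at 5.06 to 12.7 CPM at baseline and 1.40 to 2.71 CPM at t0, also without overlap (-2.17 ± 0.32, adjusted p = 3.7e-06). Both rose from t0 to t6, by 1.74 ± 0.29 and 1.28 ± 0.32 (adjusted p = 3.1e-05 and 0.0024).

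Nkx2-1 itself was at 66.9 to 117 CPM at baseline and 86.7 to 123 CPM at t0. Its log2 fold change was 0.01, with a 95% interval of -0.30 to 0.33, and it did not pass at t2 (-0.37 ± 0.16, adjusted p = 0.10), t4 (-0.13) or t6 (-0.18), nor from t0 to t2 (-0.38, adjusted p = 0.076) or from t0 to t6 (-0.19). Foxa1 was at 288 ± 34 CPM at baseline and 267 ± 20 at t0, a difference that did not pass (adjusted p = 0.39). Etv5, a factor of type II cell identity, did not pass at t0 (0.60 ± 0.36, adjusted p = 0.17), and rose at t2 (1.67 ± 0.37, adjusted p = 0.0030) and t4 (1.20 ± 0.36, adjusted p = 0.020). At t6 none of the 13 passed against baseline, and at t2 and t4 3 passed each, a share near the backgrounds of 19.9% and 19.6%.

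**Figure D5:**
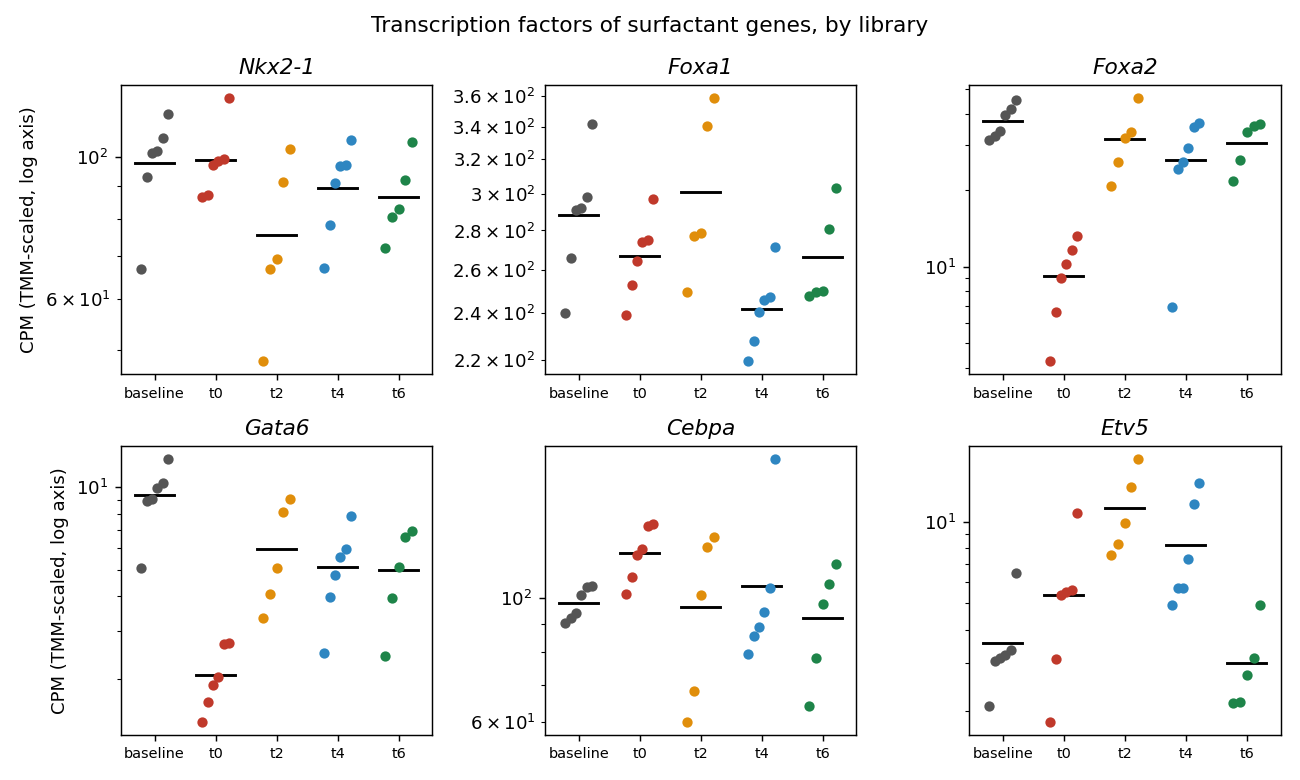
TMM-scaled CPM (log axes) of 6 transcription factors in the 28 knockout libraries by group; each point is a library and the line is the group mean. Foxa2 and Gata6 at t0 lie below baseline without overlap (4.26 to 13.2 against 31.4 to 45.1 CPM for Foxa2), while the Nkx2-1 points of the 2 groups overlap.

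Of 13 genes tested from a broad list for surfactant lipid and protein processing, 5 rose and 1 fell at t0, with a median log2 fold change of 0.06. These 6 calls are a share near the background of 45.5%. The gene that fell was Chpt1, which makes phosphatidylcholine from diacylglycerol: it went from 102 ± 16 to 33.7 ± 11.9 CPM (-1.60 ± 0.19, adjusted p = 2.4e-07). Fabp5, a fatty acid carrier also made by macrophages and basal cells, rose from 3.85 ± 1.81 to 89.2 ± 66.4 CPM (4.53 ± 0.49, adjusted p = 7.7e-08). The water channel gene Aqp5, which is also on the list of submucosal gland markers, rose from 590 ± 131 to 2034 ± 588 CPM (1.79 ± 0.23, adjusted p = 6.5e-07). Fasn, Scd1 and Slc6a14 were the other 3 that rose, by 0.66, 2.25 and 0.66 on the log2 scale. Against baseline, 2 rose and 1 fell at t2 and at t4, shares near the backgrounds of 19.9% and 19.6%. At t6, 3 rose and none fell, beside a background of 8.82%.

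Relatives of the surfactant proteins that passed at t0 were higher. Psap, the prosaposin gene whose product shares the saposin fold of SP-B, rose from 593 ± 59 to 2075 ± 873 CPM (1.81 ± 0.20, adjusted p = 5.2e-08), and Psapl1 rose from 13.5 ± 3.0 to 64.5 ± 20.6 CPM (2.26 ± 0.25, adjusted p = 7.7e-08). The other 3 of 5 saposin and BRICHOS relatives tested did not pass at t0, and Itm2b fell at t4 (-0.32 ± 0.11, adjusted p = 0.034). The 2 calls of 5 at t0 are a share near the background of 45.5%. Of the collagen-containing defence proteins related to SP-A and SP-D, 6 of 8 were too low to test. C1qa, a complement gene of macrophages, rose at t0 (1.51 ± 0.23, adjusted p = 6.8e-06), whereas Colec12 did not pass (0.77 ± 0.50, adjusted p = 0.22).

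Of 10 type II markers outside the 8 genes that were tested, 3 fell at t0 (Hc, Lgi3 and Chil1) and 2 rose (S100g and Dram1), with a median of -0.51. The 5 calls are a share near the background of 45.5%. Their summed level was 983 to 1335 CPM at baseline and 787 to 1620 CPM at t0. Lgi3 went from 7.29 ± 1.94 to 1.98 ± 1.00 CPM (-1.87 ± 0.42, adjusted p = 0.00063) and S100g, a calcium carrier, from 1.45 ± 0.53 to 16.6 ± 8.6 CPM (3.52 ± 0.52, adjusted p = 5.2e-06). Cxcl15 did not pass against baseline at t0 (-0.95 ± 0.46, adjusted p = 0.094), t2 (0.75), t4 (0.93) or t6 (0.55), and rose from t0 to t2 (1.70 ± 0.48, adjusted p = 0.0082) and from t0 to t6 (1.5 ± 0.48, adjusted p = 0.015). Rnase4 rose at t4 (1.03 ± 0.29, adjusted p = 0.014) and t6 (1.61 ± 0.30, adjusted p = 0.0010).

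Of 8 type I markers tested, 3 rose at t0 (Hopx, Emp2 and Cav1) and none fell, a share near or below the background of 45.5%. Hopx, also expressed in other squamous and basal epithelia, went from 138 ± 27 to 338 ± 55 CPM (1.3 ± 0.14, adjusted p = 7.7e-08). Ager passed in none of the 6 comparisons, with 2.23 to 17.0 CPM at baseline and 2.93 to 10.5 CPM at t0.

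Markers of the airway's secretory and ciliated cells were lower at t0. Of 12 club cell markers, 11 fell and none rose, with a median of -3.05, beside 45.5% of all genes called. Their summed level was 82150 to 120400 CPM at baseline and 24300 to 38850 CPM at t0. Against baseline 9 were still lower at t2, 10 at t4 and 9 at t6, with medians of -1.22, -1.41 and -1.16. The backgrounds at these times were 19.9%, 19.6% and 8.82% of all genes. Scgb1a1 went from 32300 ± 6963 to 700 ± 390 CPM (-5.53 ± 0.41, adjusted p = 1.1e-10) and did not pass against baseline at t2 (-0.77, adjusted p = 0.13), t4 (-0.68, adjusted p = 0.16) or t6 (-0.83, adjusted p = 0.15). From t0 it rose by 4.76 to t2 and by 4.70 to t6 (adjusted p = 1.4e-08 and 8.9e-09). Scgb3a1, another secretoglobin, was lower at all 4 times (-4.56, -1.75, -1.68 and -1.36, adjusted p = 2.9e-10, 0.00087, 0.00057 and 0.0089). At t0 Scgb1a1 and Scgb3a1, with means of 700 and 512 CPM, were a small part of the summed level. The t0 sum thus came mostly from other markers on the list. Cckar, the third club cell gene chosen by its F test, was lower at all 4 times as well (-5.68, -3.56, -4.13 and -3.38).

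All 10 ciliated cell markers fell at t0 (median -2.12, summed level 3830 to 4802 CPM at baseline and 1262 to 3004 CPM at t0), among them Rfx3 (-2.0 ± 0.24), Dnah5 (-3.05 ± 0.36) and Cdhr3 (-2.37 ± 0.32), with adjusted p-values of 2.9e-07, 2.2e-07 and 1.4e-06. None of the 10 fell against baseline at t2, t4 or t6. Of them, 1 rose at t2 and 1 at t4, beside backgrounds of 19.9% and 19.6% of all genes. The counts that follow, like the 10 falls above, are for t0, where the background was 45.5%. Of 8 basal cell markers, 7 rose and none fell (median 1.79), with Krt14 going from 6.33 ± 6.15 to 149 ± 48 CPM, Aqp3 from 226 ± 40 to 860 ± 149 CPM and Dapl1 from 19.2 ± 4.3 to 44.7 ± 13.8 CPM. Macrophage markers had a median of 4.28, with Cd68 going from 9.21 ± 1.67 to 162 ± 92 CPM, Mrc1 from 2.73 ± 1.41 to 73.4 ± 35.3 CPM and Marco from 0.985 ± 0.841 to 34.9 ± 28.0 CPM. Of 9 mature dendritic cell markers tested, 7 rose and none fell (median 1.25), with Ccr7 going from 0.315 ± 0.296 to 9.47 ± 6.05 CPM and a summed level of 134 to 176 CPM at baseline and 258 to 361 CPM at t0. Fscn1 went from 1.70 ± 1.21 to 26.0 ± 7.6 CPM and Socs2 from 91.8 ± 15.3 to 168 ± 34 CPM, and both rose. Socs2 alone made up most of the summed level in both groups. Of 8 submucosal gland markers, 2 rose and 2 fell, a share near the background of 45.5%. Aqp5, given above, was among those that rose. Wfdc18 rose by 3.35 ± 0.61 (adjusted p = 8.6e-05), and Bpifb1 fell by 2.87 ± 0.34 (adjusted p = 2.1e-07). The part of cell composition in the surfactant gene results was not tested.

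The genes most like each member were found by comparing the 4 log2 fold changes against baseline, over 11528 genes with a mean of at least 5 CPM. Likeness is the largest of the 4 absolute differences, and all 4 values share the same baseline libraries. For Sftpa1 these were Sult1c2 (0.28), AU021092 (0.60) and Clca1 (0.69), of which Clca1 encodes a secreted protein of mucous cells. For Sftpb no gene came closer than 0.79 (Cml3), and the next were Cfap61 (1.38) and 9830166K06Rik (1.49). For Sftpc they were Ubxn10 (0.16), Asb14 (0.19) and Lrrc10b (0.22), with mean levels of 362, 17.6 and 184 CPM.

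For Sftpd the nearest were Agps (0.05), Oxct1 (0.05) and Pop5 (0.06), and for Abca3 they were Zc3h14 (0.03), Cdc42bpa (0.05) and Ddx5 (0.08). Those of Napsa were H2-Q8 (0.17), Capn5 (0.21) and Psmb8 (0.24), of which H2-Q8 is a class I histocompatibility gene and Psmb8 an immunoproteasome subunit. Those of Slc34a2 were Synm (0.21), Alox15 (0.28) and Cxcl17 (0.31), and those of Lamp3 were Alg8 (0.18), Alg3 (0.22) and Slc45a3 (0.31). Neither Slc34a2 nor Lamp3 passed against baseline at any time, and the Lamp3 level is uncertain. Small changes leave small differences from many genes, so these values do not rank likeness between members.

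Levels in unexposed mice of both genotypes can be set side by side, though the authors processed the 2 sources separately and no test was run. Scaled by library totals, Sftpa1 was at 788 ± 276 CPM in knockout baseline and 467 ± 145 CPM in wild-type libraries. Sftpd was at 572 ± 126 and 374 ± 104 CPM, and Abca3 at 302 ± 53 and 232 ± 74 CPM. Sftpb was at 45.1 ± 22.6 and 33.7 ± 19.98 CPM, and Sftpc at 8.97 ± 3.71 and 9.04 ± 4.10 CPM. Napsa was at 3.02 ± 2.52 and 5.28 ± 4.22 CPM, and Slc34a2 at 6.55 ± 4.37 and 8.38 ± 2.98 CPM. The ranges overlapped for these 7 genes. Lamp3 was at 1.81 ± 0.49 CPM in the knockout table and at 0 in 5 of 6 wild-type libraries. Its knockout level is uncertain, given the matching fractional counts of Lamp3 and Ppid, and the cause of this difference was not tested.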

How the data were processed

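The authors deposited the knockout values as estimated counts, although the table's name says RPKM: 76.3% of values above 0 were whole within 0.01, and library totals differed. The submitters' processing notes name Bowtie2 2.1.0, STAR 2.4.1d, Partek and the build mm10 for the knockout libraries. For the wild-type libraries they name RSEM 1.3.1, STAR 2.7.0f and GRCm38. Their settings, the use of strand and the sharing of reads between genes are not given in the sources used here. Per the labels, poly-A libraries were made from RNA that passed an integrity cut-off and read on an Ion Proton. Per the file headers, each wild-type file gives FPKM, TPM and expected counts from RSEM.

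Counts were rounded. A gene was tested if 5 or more libraries reached 1 CPM (14847 genes). edgeR 4.0.16 (R 4.3.3) fitted 1 mean per group over all 28 knockout libraries with TMM scaling and a robust quasi-likelihood test, two-sided, with Benjamini-Hochberg adjustment over all genes (threshold 0.05). The SE was taken from the fold change and its F statistic, and intervals are 95%. DESeq2 1.42.0, limma 3.58.1 on log2(CPM + 1) and log2(CPM + 0.1), other scalings and filters, sex as a covariate and libraries left out were tried. The fit was tested on simulated data. No test was run between genotypes, since the 2 sources were processed separately. The surfactant genes and the gene lists were chosen with earlier results of these data known, so counts over lists are descriptions. In each list the 3 genes with the smallest p of the F test over the 5 groups are named, with Nkx2-1, Ager, Cxcl15 and Scgb1a1 in every comparison. Other list genes, such as Foxa1, Cebpa and those named for a count of 5 or fewer, were chosen after their values were seen.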

Additional observations from a re-analysis of the deposited data

Results flagged for a closer look

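Among 47 sets of libraries, each a gene in a group of 5 or 6, a single library lay far from the rest in 5, where chance alone gives about 1 in 20. Sftpb in t0 library 332 was at 0.273 CPM, with the others at 1.85 to 3.45 CPM. Sftpc in baseline library 352 was at 2.18 CPM, with the others at 8.32 to 12.2 CPM, and Sftpc in t4 library 371 was at 22.8 CPM, with the others at 12.5 to 14.6 CPM. Abca3 in t4 library 377 was at 151 CPM, with the others at 256 to 321 CPM. Slc34a2 in t2 library 339 was at 0.291 CPM, with the others at 11.1 to 27.0 CPM. Of these, library 339 also had the most Gprc5a reads of the knockouts, and library 371 had 25.5% haemoglobin reads.

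Effects against baseline differed between times for 5 genes by a direct edgeR test. The backgrounds were 29.9% of all genes from t0 to t2 and 38.7% from t0 to t6. From t0 to t2 the log2 difference was 2.7 for Sftpa1, 5.21 for Sftpb, 2.46 for Sftpc and -1.81 for Napsa. From t0 to t6 it was 1.78 for Sftpa1, 4.45 for Sftpb, 2.47 for Sftpc, -1.87 for Napsa and 0.71 for Abca3. The calls of Napsa and Abca3 were lost with some single libraries left out or under other settings, as given above.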

How the results depend on the processing

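The number of surfactant genes called was recomputed under 10 alternatives and with each of 28 libraries left out. It was 5 to 6 at t0, 1 at t4 and 1 at t6 against baseline. At t2 it was 1, and 1 to 2 over the libraries left out, with Slc34a2 added without t2 library 339 (2 genes). From t0 to t2 it was 3 to 5, from t0 to t6 4 to 6, and over the 5 groups 4 to 6. The share of all genes called also moved under the alternatives. Against baseline it was 30.0 to 50.9% at t0, 12.1 to 24.4% at t2, 10.9 to 30.6% at t4 and 5.12 to 13.2% at t6. It was 19.4 to 33.1% from t0 to t2, 24.5 to 43.1% from t0 to t6 and 38.3 to 62.2% over the 5 groups. Single-gene values kept direction and side of the threshold in 1778 cases, lost the call in 10, gained one in 12 and changed sign in 18.

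All 18 sign changes were of differences that had not passed. Over the libraries left out, Sftpb at t6 ranged from -0.30 to 0.16, with 0.10, 0.02 and 0.16 without baseline libraries 344 and 345 and t6 library 368. Napsa at t2 became -0.56 without the 6 libraries that stood apart and -0.15 without t2 library 339 (range -0.15 to 0.79). At t4 it became 0.071 and 0.15 with limma at pseudocounts 1 and 0.1, 0.10 with sex as a covariate, 0.47 without baseline library 356 and 0.10 without t4 library 377 (range -0.29 to 0.47). At t6 it became -0.02 and -0.20 without baseline library 352 and t6 library 368 (range -0.20 to 0.73). Lamp3 at t0 became -0.070 and -0.22 with limma and -0.56 without t0 library 375 (range -0.56 to 0.41). From t0 to t2 Lamp3 became -0.34 without the 6 libraries and -0.050 without t2 library 339, and passed without t0 library 375 (1.22). Slc34a2 at t0 became 0.033 without baseline library 345 (range -0.75 to 0.033). The cause was not tested. Lamp3 had no value under a filter of 5 CPM. No paired analysis was possible because each mouse gave a single library and the groups share no replicate numbers.
Scaling by library totals raised the share of calls that were higher from 56.1% to 80.3% at t2, from 51.2% to 71.2% at t4 and from 51.4% to 72% at t6, and lowered it from 46.95% to 35.6% from t0 to t6. That last share was 57.2% with haemoglobin genes and Rn45s left out and 54.6% without the 6 libraries, which gave 67.5% for t6 against baseline. The low counts of Sftpb at t0 (from 6 reads) and of Lamp3 limit the precision of their fold changes.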
